A study of Mus musculus with 2 samples.

Results

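The Z-disc genes described here are 10 genes of the plate that anchors actin filaments at each end of a sarcomere, the contractile unit of muscle. They are the alpha-actinin genes Actn1, Actn2, Actn3 and Actn4, the myozenin genes Myoz1, Myoz2 and Myoz3, and the genes Myot, Ldb3 and Tcap. They were picked by symbol from a list, with no threshold on their values, and all 10 symbols matched 1 gene identifier each among 55536 annotated mouse genes. All 10 had a level of 1 or more in both libraries on the TPM scale. TPM divides reads by transcript length and by depth, so that levels of different genes can be compared.

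The tissue was the gastrocnemius, the large muscle of the calf, from hybrid B6CASTF1/J male mice at 4 days of age. There was 1 group of 2 biological replicates, which the labels number as separate animals although both carry the same donor record, and no treatment or altered gene was listed. Each library was made from 300 ng of total RNA with ERCC spike-in controls. There was no second group, so the comparisons are between genes within a library and between the 2 animals. With 2 values the smallest p of an exact sign-flip test (two-sided) is 0.5, so differences are set against the spread of the libraries and no test was made.

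Annotated genes held 35281187 expected counts in replicate 1 and 32301531 in replicate 2, of which the 10 genes took 0.547% and 0.489%. All 6 skeletal muscle markers were at 1 TPM or more in both libraries, with a summed level of 35293 TPM in replicate 1 and 32743 in replicate 2 and matched the tissue label. Of 5 cardiac markers only Myh6 reached 1 TPM in both, at 48.2 TPM in replicate 1 and 60.4 in replicate 2, and Nppa had a count of 0. By a second quantification, described below, Myh6 stood at 20.8 and 26.7 TPM. Replicate 2 stood apart in 6 of 6 epidermal genes, whose summed level was 9.60 TPM in replicate 1 and 746 in replicate 2, and none of the 6 was at 0 in either library. In bulk tissue fewer cells of a type and less RNA per cell cannot be told apart, so every level below is a level in the whole muscle.

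Alpha-actinin is a rod-shaped dimer that crosslinks the actin filaments of neighbouring sarcomeres, and titin, the elastic filament of the sarcomere, is tied into the same lattice. The other proteins dock on this lattice. Myozenins (calsarcins) bind alpha-actinin, filamin C and the phosphatase calcineurin, Ldb3 (ZASP or Cypher) binds alpha-actinin through a PDZ domain, myotilin binds alpha-actinin, filamin C and actin, and telethonin, the product of Tcap, clamps the ends of a pair of titin molecules at the edge of the Z-disc. Actn2 is used in all striated fibres and the heart, Actn3 in fast skeletal fibres, and Actn1 and Actn4 mainly in nonmuscle and smooth muscle cells.

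The muscle actinins were the highest of the 10 genes and Myoz3 was the lowest. In descending order of mean TPM the genes were Actn2, Actn3, Myoz1, Ldb3, Tcap, Myoz2, Myot, Actn4, Actn1 and Myoz3. Neighbours in this order were separate in both libraries except Tcap and Myoz2, and Myoz2 and Myot, whose values overlapped. A second quantification was made by the authors directly from reads. In it Myoz1 lay above Actn3 in replicate 1 (830 and 813 TPM) and below it in replicate 2 (704 and 731 TPM). Tcap lay below Myoz2 in replicate 2 by both quantifications (179 and 185 TPM, then 218 and 275 TPM). In the second it lay below Myot there too (237 TPM). In replicate 1 Tcap lay above Myoz2 and Myot by both. Of 22015 protein-coding genes outside the mitochondrial genome, 12159 were at 1 TPM or more in both libraries. By mean TPM among all 22015, Actn2 ranked 41, Actn3 55, Myoz1 74 and Ldb3 99. Tcap ranked 206, Myoz2 303, Myot 322 and Actn4 936, whereas Actn1 ranked 3101 and Myoz3 4360. Set against the 12159 at 1 TPM or more, 8 of the 10 lay above 92.3% or more, Actn1 above 74.5% and Myoz3 above 64.2%.

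**Figure D1:**
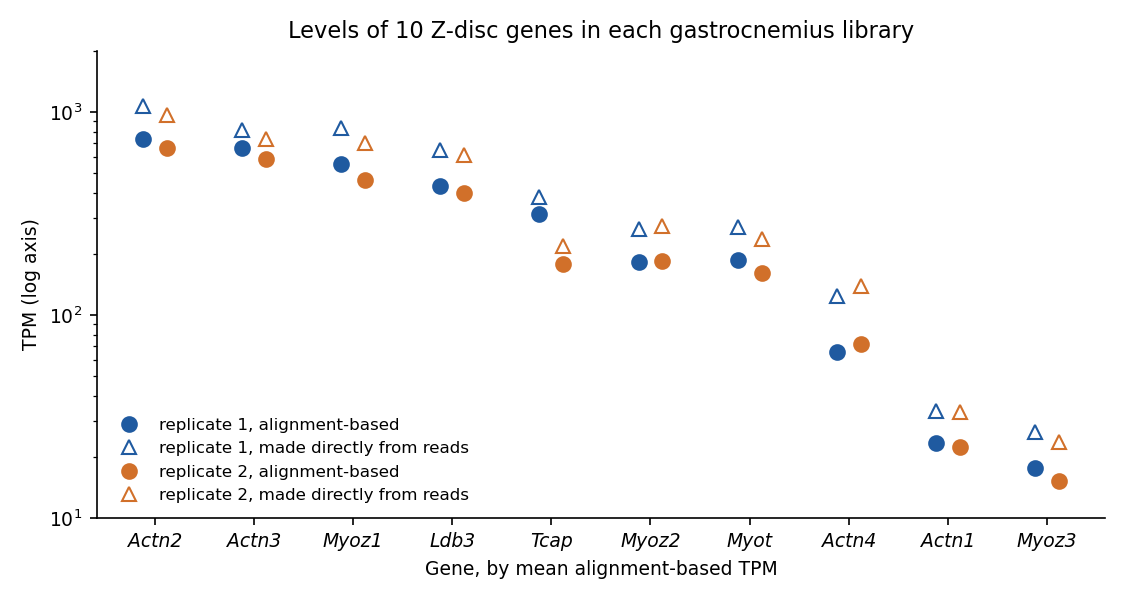
TPM on a log axis for each of the 10 genes, ordered by mean alignment-based TPM, with replicate 1 in blue and replicate 2 in orange, filled circles for the alignment-based table and open triangles for the quantification made directly from reads. The circles run from 732 TPM for Actn2 in replicate 1 down to 15.2 TPM for Myoz3 in replicate 2, and Tcap is the gene whose 2 libraries lie farthest apart.

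The second quantification gave higher TPM for all 10 genes, as it did for most genes. Its median fold over the alignment-based TPM was 1.60 across protein-coding genes, with a 10th percentile of 1.34 and a 90th of 2.08. For 7 of the 10 genes the fold lay between 1.46 and 1.52. Tcap at 1.21 and Actn3 at 1.24 lay below the 10th percentile, and Actn4 was the highest of the 10 at 1.91. Levels within 1 quantification are therefore compared below, and both are given where they differ.

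Actn2, the alpha-actinin of all striated muscle, stood at 732 TPM in replicate 1 and 666 in replicate 2 (699 ± 46.9, SD, n = 2), from 62171 and 50849 counts. It lies at chr13:12269426-12340760 on the minus strand of mm10 (ENSMUSG00000052374.16). Actn3, the alpha-actinin of fast fibres, stood at 662 and 583 TPM (623 ± 55.7), from 46306 and 38123 counts, and lies at chr19:4861216-4877909 on the minus strand (ENSMUSG00000006457.4). The pair was close in level, with Actn2 the higher in both animals.

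Actn2 exceeded Actn3 by 1.12-fold in TPM, a log2 ratio of Actn3 over Actn2 of -0.17 ± 0.03 (SD, n = 2). The gap widened to 1.32-fold in the second quantification (-0.40) and to 1.34-fold in counts not divided by length (-0.42). The annotation lists a short transcript of Actn3 with a retained intron, Actn3-202, 982 nt long. It took 20.8% and 20.4% of Actn3 TPM but 7.61% of Actn3 counts on average, and was listed at 0 in the second quantification. With protein-coding transcripts only, an alternative chosen after seeing the data, Actn2 exceeded Actn3 by 1.38-fold (-0.47). Actn2 was thus the higher gene in each library and under every alternative run.

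Within the actinin family Actn2 held 49.4% of summed TPM in replicate 1 and 49.6% in replicate 2 (49.5% ± 0.130). Actn3 held 44.6% and 43.4% (44.0% ± 0.875), and the share was 39.4% in the second quantification. Together the muscle actinins took 94.0% and 93.0% of the family, whose sum was 1483 TPM in replicate 1 and 1344 in replicate 2. They exceeded the sum of Actn4 and Actn1 by 14.4-fold (log2 ratio 3.85 ± 0.18), and by 10.9-fold (3.44) in the second quantification.

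The nonmuscle actinins were low beside Actn2 and Actn3. Actn4, which crosslinks actin at cell edges and stress fibres, stood at 65.3 and 72.2 TPM (68.8 ± 4.87), from 5782 and 5578 counts, and held 4.40% and 5.37% of the family. It lies at chr7:28893248-28962340 on the minus strand (ENSMUSG00000054808.15). Actn1, the actinin of focal adhesions, stood at 23.4 and 22.3 TPM (22.9 ± 0.750), from 1889 and 1741 counts, with 1.58% and 1.66% of the family. It lies at chr12:80167547-80260371 on the minus strand (ENSMUSG00000015143.15). Actn4 exceeded Actn1 by 2.99-fold (log2 ratio 1.58 ± 0.15) and was the higher in both animals. Markers of cells that use these genes were present, with 6 of 6 fibroblast genes at a summed 7636 and 7540 TPM, 5 of 5 endothelial genes at 216 and 228 TPM and 6 of 6 smooth muscle and pericyte genes at 339 and 346 TPM. Their part in the level of Actn1 and Actn4 was not tested.

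**Figure D2:**
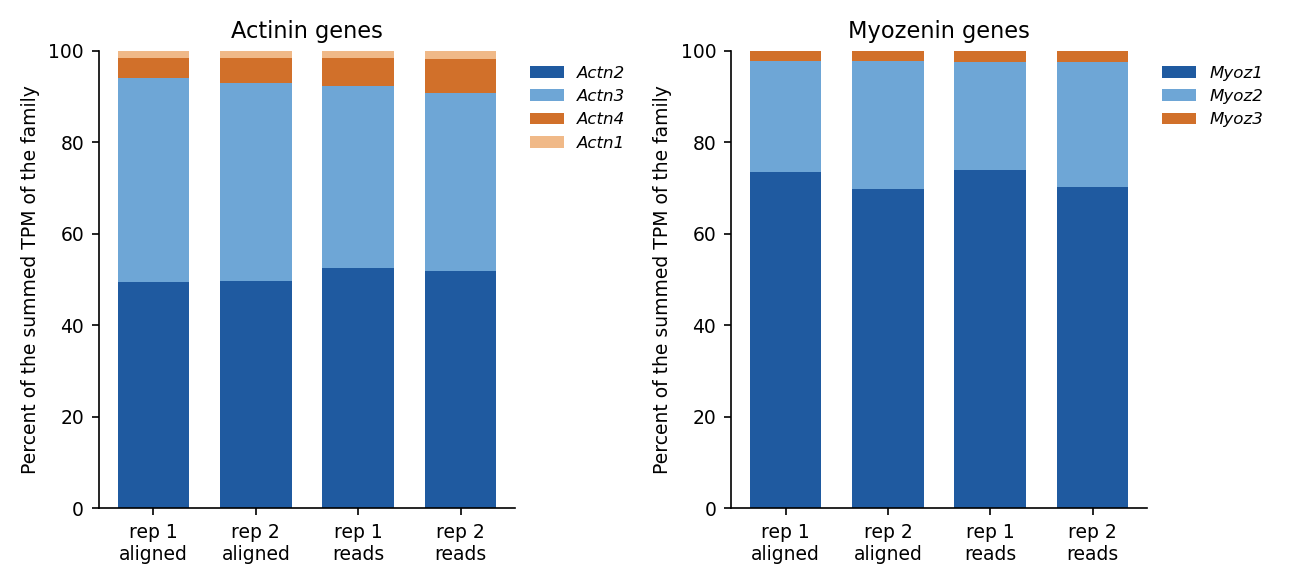
Stacked bars of the percent of summed TPM held by each actinin gene (left) and each myozenin gene (right), 1 bar per replicate (rep) for the alignment-based table (aligned) and for the quantification made directly from reads (reads). Actn2 and Actn3 together fill 90.8% to 94.0% of every actinin bar, and Myoz1 fills 69.9% to 73.9% of every myozenin bar.

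The 4 actinin genes shared little exact sequence. The coding sequences of Actn2 and Actn3 were identical at 74.9% of aligned positions, and the longest run their leading transcripts shared exactly was 51 nt. Actn1 and Actn4 were the closest pair at 78.6%, with a shared run of 65 nt. The authors' quantifier gave whole counts with an SD of 0 at gene level for all 10 genes. Within genes the split was less certain, and the leading transcripts differed in weight. Actn2-201 took 99.2% and 95.1% of Actn2 TPM, and 90.2% and 84.0% in the second quantification, where most of the rest went to Actn2-203, with the same coding length of 2682 nt. Actn3-201 took 79.2% and 79.6% of its gene, and Actn4-201 took 73.3% and 67.1% among 11 annotated transcripts (52.8% and 48.5% in the second quantification).

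Actn1 was represented by transcripts with different versions of a coding exon that sets calcium sensitivity. Actn1-201 took 53.7% and 58.4% of Actn1 TPM, and Actn1-202 took 25.2% and 22.0%. Both have 21 coding exons and differ in coding exon 19, within the calcium-binding EF-hand region near the end of the protein. The longer version belongs to the nonmuscle form, which releases actin when calcium binds, and the shorter to the smooth muscle form, which does not respond to calcium. Exon 19 of the leading transcript of each actinin gene, and of Actn1-202, is shown so that the versions can be compared. The sequences are from the GENCODE M21 transcripts on mm10, minus strand, and no part is in capitals.
Actn1-201 (chr12:80170686-80170766): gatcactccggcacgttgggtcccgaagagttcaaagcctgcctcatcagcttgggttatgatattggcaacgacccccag
Actn4-201 (chr7:28895432-28895512): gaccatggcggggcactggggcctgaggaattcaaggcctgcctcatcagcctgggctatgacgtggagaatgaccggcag
Actn1-202 (chr12:80170183-80170248): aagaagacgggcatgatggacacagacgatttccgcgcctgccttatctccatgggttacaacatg
Actn2-201 (chr13:12272699-12272764): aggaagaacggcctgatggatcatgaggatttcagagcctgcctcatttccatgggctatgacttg
Actn3-201 (chr19:4862170-4862235): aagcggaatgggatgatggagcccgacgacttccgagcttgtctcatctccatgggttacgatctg

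The leading transcripts of the muscle genes Actn2 and Actn3 have the short exon of 66 nt, those of Actn1 and Actn4 the long exon of 81 nt, and Actn1-202 the short one. Base by base, exon 19 of Actn1-202 was identical to that of Actn2 at 49 of 66 positions and to that of Actn3 at 50 of 66, whereas Actn2 and Actn3 shared 47 of 66. Actn1-201 and Actn4-201 shared 58 of 81. The 66-nt version made up 31.9% of Actn1-201 and Actn1-202 together in replicate 1 and 27.4% in replicate 2. The corresponding shares were 34.1% and 32.5% in the second quantification, and 24.8% or less of counts in both libraries. These shares rest on 442 and 344 counts for Actn1-202, with a posterior SD of 49.9 and 44.3 counts, so the split is imprecise in each library.

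Ldb3, which holds alpha-actinin through a PDZ domain at its start, stood at 434 TPM in replicate 1 and 399 in replicate 2 (416 ± 24.8), from 32596 and 27913 counts. It lies at chr14:34526603-34588682 on the minus strand (ENSMUSG00000021798.14). Actn2 exceeded Ldb3 by 1.68-fold. The gene has 8 annotated transcripts, of which 7 are coding. Long forms end in 3 LIM domains, zinc-binding modules that dock signalling proteins, and short forms stop before them. Between the PDZ domain and these ends, transcripts carry either 1 exon typical of the heart or a set of exons typical of skeletal muscle, each with its own version of the ZASP-like motif that also meets alpha-actinin.

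A short skeletal-type transcript led Ldb3. Ldb3-207, which stops before the LIM exons, took 62.8% of Ldb3 TPM in replicate 1 and 62.7% in replicate 2 (62.8% ± 0.0424, SD, n = 2). Ldb3-205, a long skeletal-type form, took 29.0% and 29.6%. By the alignment-based table these were the transcripts at 5% or more of the gene in either library. The animals differed by less than 1 percentage point in each. In the second quantification Ldb3-207 took 56.1% and 56.8% and Ldb3-205 33.9% in both. Ldb3-208, a long skeletal-type form, also passed 5% there, with 5.78% in both libraries.

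Skeletal-type exons were present in nearly all Ldb3 transcripts. Transcripts with skeletal-type exons made up 96.1% and 96.7% of Ldb3 TPM, against 3.94% and 3.34% with the cardiac-type exon. The second quantification gave 96.4% and 97.0% skeletal-type, against 3.58% and 2.97% cardiac-type. In counts not divided by length the cardiac-type share was 7.69% and 6.53%. These counts lay in Ldb3-201, with a posterior SD of 204 of 2507 counts in replicate 1 and 156 of 1822 in replicate 2. The cardiac-type share was placed in different transcripts, in Ldb3-201 (3.94% and 3.34%) by the alignment-based table and mainly in the short Ldb3-203 (2.61% and 1.93%) in the second. Sequences that mark each type are shown 5′ to 3′ with no part in capitals, from the GENCODE M21 transcripts on mm10, chromosome 14, minus strand. The first skeletal-type exon is given whole, and of the cardiac-type exon (chr14:34576986-34577344, 359 nt) the first 204 bases.
First skeletal-type exon of Ldb3-207 (chr14:34572990-34573012): gtggtagccaattctccagccaa
Cardiac-type exon of Ldb3-201 (chr14:34577141-34577344): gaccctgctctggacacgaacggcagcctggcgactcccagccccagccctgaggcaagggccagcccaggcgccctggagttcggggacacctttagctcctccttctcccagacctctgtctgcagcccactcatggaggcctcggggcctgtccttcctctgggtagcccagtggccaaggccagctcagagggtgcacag

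Short forms exceeded long forms in TPM, which divides by the annotated length, but not in counts. Short forms without the LIM exons took 62.8% and 62.7% of Ldb3 TPM, against 37.2% and 37.3% for long forms. The second quantification gave 58.7% in both libraries for the short forms and 41.3% for the long ones. In counts not divided by length the short forms had 34.2% in both libraries and the long forms 65.8%, as Ldb3-207 is 1499 nt long and Ldb3-205 is 4981 nt. The posterior SD of the Ldb3-207 count was 56.4 of 11155 counts in replicate 1 and 51.7 of 9541 in replicate 2. The last coding bases of both forms are shown because they mark where each product ends, with the stop codon in capitals.
Short end, Ldb3-207 (chr14:34561785-34561881): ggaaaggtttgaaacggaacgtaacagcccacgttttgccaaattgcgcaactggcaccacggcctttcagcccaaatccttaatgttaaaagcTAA
Long end, Ldb3-205 (chr14:34529460-34529549): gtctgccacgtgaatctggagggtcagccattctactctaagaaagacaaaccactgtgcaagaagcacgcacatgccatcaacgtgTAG

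**Figure D3:**
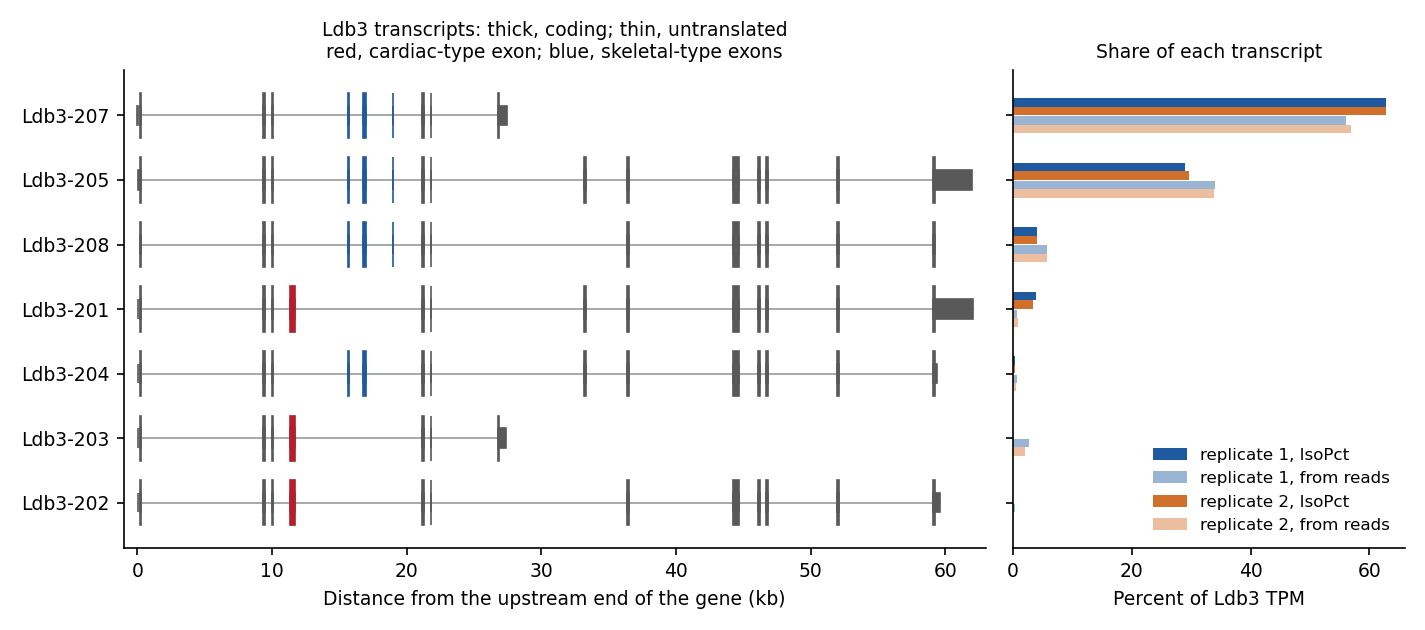
Left, exons of the 7 coding Ldb3 transcripts against distance in kb from the upstream end of the gene, with the cardiac-type exon in red and the skeletal-type exons in blue. Right, the percent of Ldb3 TPM of each transcript per replicate, by the alignment-based IsoPct (dark) and by the quantification made directly from reads (pale), where Ldb3-207 and Ldb3-205 hold over 90% together by the alignment-based table.

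Among long forms a further exon was mostly included. This exon, called exon D here, has 186 nt (62 codons, no base over) and lies at chr14:34555343-34555528, ahead of the other exons that only long forms use. Long forms with it took 33.2% of Ldb3 TPM in both libraries, against 4.00% and 4.04% for long forms without it. In the second quantification the shares were 35.1% and 35.3% with exon D, against 6.16% and 5.99% without it. Its sequence is given because it is the segment in which Ldb3-205 and Ldb3-208 differ in their middle part, with no part in capitals.
Exon D of Ldb3-205: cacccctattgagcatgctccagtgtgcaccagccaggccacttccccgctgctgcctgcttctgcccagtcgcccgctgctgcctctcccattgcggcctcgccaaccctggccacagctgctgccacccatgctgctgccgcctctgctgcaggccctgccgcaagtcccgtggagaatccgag

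The PDZ domain of Ldb3 is known to bind the extreme carboxyl end of alpha-actinin and of myozenins. The last 30 coding bases of the 4 actinins and of the main myozenins are therefore shown, with the stop codon in capitals, from the minus strand of mm10. Actn2 and Actn3 were identical at 23 of these 30 positions, Actn2 and Actn1 at 23, and Actn1 and Actn4 at 25. Myoz1 and Myoz2 shared 15 of 30.
Actn2-201 (chr13:12269494-12269526): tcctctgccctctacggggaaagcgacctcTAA
Actn3-201 (chr19:4861345-4861377): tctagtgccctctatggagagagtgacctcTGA
Actn1-201 (chr12:80168322-80168354): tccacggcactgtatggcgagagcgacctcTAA
Actn4-201 (chr7:28894229-28894261): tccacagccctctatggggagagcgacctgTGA
Myoz1-201 (chr14:20649378-20649410): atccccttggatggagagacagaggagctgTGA
Myoz2-201 (chr3:123006383-123006415): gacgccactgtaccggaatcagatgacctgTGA

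Myoz1 was the main myozenin. Myoz1, the myozenin of fast fibres, stood at 554 TPM in replicate 1 and 463 in replicate 2 (509 ± 64.3), from 17797 and 13851 counts. Myoz2, the myozenin of slow fibres and the heart, stood at 182 and 185 TPM (183 ± 2.06), from 5671 and 5321 counts. Myoz1 exceeded Myoz2 by 2.77-fold (log2 ratio 1.47 ± 0.20, SD, n = 2) and by 2.83-fold in the second quantification. Myoz3, a further fast-fibre myozenin, stood at 17.7 and 15.2 TPM (16.5 ± 1.72), from 1725 and 1386 counts. It was 11.1-fold below Myoz2 in TPM but only 3.55-fold below in counts, as its transcript of 3436 nt is longer than the 1181 nt of Myoz2-201.

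As shares of the family, Myoz1 held 73.6% and 69.9% of summed TPM (71.7% ± 2.60), Myoz2 24.1% and 27.8% (26.0% ± 2.63), and Myoz3 2.34% and 2.30% (2.32% ± 0.0331). The animals differed more in the split of Myoz1 and Myoz2 than in the share of Myoz3. The family summed to 754 TPM in replicate 1 and 663 in replicate 2, which was 1.87-fold below the sum of Actn2 and Actn3 (log2 ratio -0.90 ± 0.02). In the second quantification Myoz1 held 73.9% and 70.2%. Myozenin coding sequences were identical at 47.9% to 48.7% of aligned positions, with no exact shared run over 12 nt. Myoz1-201 took 89.3% and 89.2% of its gene and Myoz2-201 93.2% and 91.7%, whereas Myoz3 has 1 annotated transcript. Myoz1 lies at chr14:20649107-20656540 (ENSMUSG00000068697.7), Myoz2 at chr3:123006206-123035015 (ENSMUSG00000028116.13) and Myoz3 at chr18:60573750-60591788 (ENSMUSG00000049173.8), all on the minus strand.

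Calcineurin, the phosphatase that myozenins tether to the Z-disc, was present at lower levels than Myoz1 and Myoz2. The catalytic subunit genes Ppp3cb and Ppp3ca stood at 50.8 and 51.0 TPM and at 51.1 and 47.6 TPM, and the regulatory subunit gene Ppp3r1 at 49.3 and 52.4 TPM. Ppp3cc, the remaining catalytic subunit gene, stood at 2.51 and 2.36 TPM. None of the 4 was over 1.5-fold apart between the animals, against 3.99% of the 12421 genes compared below.

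Myot, whose product crosslinks actin together with alpha-actinin, stood at 186 TPM in replicate 1 and 160 in replicate 2 (173 ± 18.3), from 11327 and 9080 counts. Ldb3 exceeded it by 2.41-fold. Myot lies at chr18:44334074-44355724 on the plus strand (ENSMUSG00000024471.12). Its 2 transcripts have the same coding length of 1488 nt, and Myot-201 took 76.6% and 76.5% of the gene, or 99.8% and 97.1% in the second quantification. Among the 3 genes of the myotilin family Myot held 54.9% and 53.8% of summed TPM, myopalladin (Mypn), which ties nebulin and titin to the Z-disc, 26.3% and 24.7%, and palladin (Palld), an actin organiser of many cell types, 18.8% and 21.5%.

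Tcap was the gene that differed most between the animals. It stood at 314 TPM in replicate 1 and 179 in replicate 2 (246 ± 95.4), from 7787 and 4133 counts. It lies at chr11:98383811-98384953 on the plus strand (ENSMUSG00000007877.2) and has 1 annotated transcript of 948 nt. Scaled for depth, its counts were 1.78-fold higher in replicate 1 than in replicate 2 (log2 ratio 0.83, 95% exact counting interval 0.77 to 0.88). The interval covers counting error only, and with 1 library per animal the animal cannot be told apart from dissection or library preparation. Over all scalings and both quantifications the log2 ratio lay between 0.75 and 0.84.

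No other of the 10 genes passed 1.5-fold between the animals. Tcap was 1 of 10 over this fold in either direction, against 3.99% of all 12421 genes whose mean count reached 100. It was also the 1 of 10 past the fold with the higher value in replicate 1, where the share of all genes was 0.845%, and 0 of 10 passed it with the higher value in replicate 2, against 3.14% of all genes. Only 0.225% of these genes had a ratio above that of Tcap. The median log2 ratio of the 10 genes was 0.20, against 0.01 over all genes.

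The remaining ratios were small and mostly of 1 sign. Myoz1 stood at 0.28 (counting interval 0.25 to 0.31), Myot and Myoz3 at 0.23, Actn2 at 0.21, Actn3 at 0.20 and Ldb3 at 0.14 on the log2 scale, replicate 1 over replicate 2. The intervals of these 6 genes lay above 0. Actn1 at 0.03, Myoz2 at 0.01 and Actn4 at -0.03 had intervals that held 0, and Actn1 (-0.04) and Myoz2 (-0.07) changed sign when libraries were scaled by the ERCC controls, as they did with total counts (-0.01 and -0.04). ERCC scaling moved the median of all genes to -0.07. In all, 9 of 10 were higher in replicate 1, whereas 51.9% of all genes were. For the 6 genes named first, 8.08% to 23.6% of all genes had a larger ratio.

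**Figure D4:**
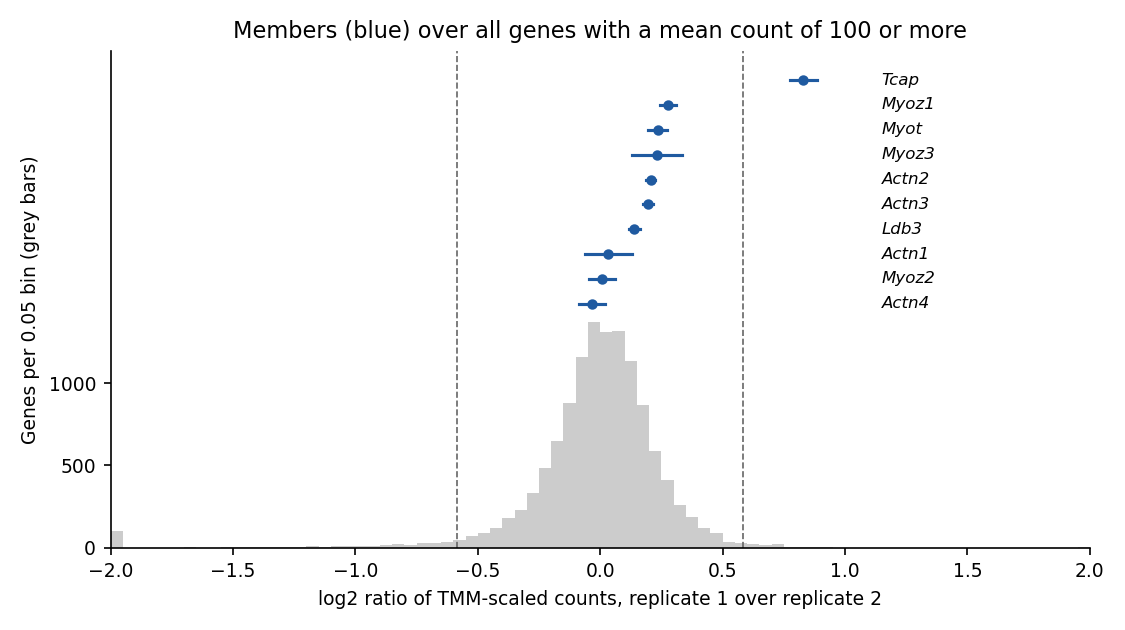
Log2 ratio of depth-scaled counts, replicate 1 over replicate 2, for each of the 10 genes (blue points, with bars for the exact 95% counting interval) above the distribution of 12421 genes in bins of 0.05 (grey), whose first bar gathers all lower ratios. Dashed lines mark 1.5-fold, and Tcap at 0.83 is the 1 point beyond them.

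Genes of fibre types also differed between the animals. All 10 fast-fibre genes were higher in replicate 1, against 51.9% of all genes. Their summed level was 35772 TPM there and 31732 TPM in replicate 2, with a median log2 ratio of 0.24. All 8 slow-fibre genes were lower in replicate 1, with a summed 1475 TPM against 1674 TPM in replicate 2 (-0.20). Of the developmental muscle genes 5 of 6 were lower there too (median -0.30). The exception was Myh8, the highest of them, at 4877 TPM in replicate 1 and 4482 in replicate 2 (0.14). The summed level of the 6 was thus close, at 5992 and 6022 TPM. Myh4, the myosin of the fastest fibres, was the 1 of 10 fast-fibre genes over 1.5-fold, against 3.99% of all genes. It stood at 823 TPM in replicate 1 and 503 in replicate 2. All 6 skeletal muscle markers were also higher in replicate 1 (median log2 ratio 0.15), against 51.9% of all genes. They share Mylpf and Tnnt3 with the fast-fibre genes. Actn3 (0.20) and Myoz1 (0.28) of fast fibres had ratios above 0. Myoz2 of slow fibres and heart was at 0.01, and Actn2 of all fibres at 0.21. The part of fibre composition in these ratios was not tested, nor was that of the epidermal genes.

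All 16 Z-disc partner genes were at 1 TPM or more in both libraries. The highest were titin (Ttn), at 1569 and 1603 TPM, nebulin (Neb), the ruler of the thin filament, at 990 and 957 TPM, the LIM protein gene Fhl1 at 691 and 606 TPM, and the chaperone gene Cryab at 264 and 279 TPM. Ttn and Neb were thus above Actn2, the highest of the 10 Z-disc genes, and Fhl1 lay between Actn2 and Actn3 in both animals. The median log2 ratio between the animals over the 16 genes was 0.12, with 13 of 16 higher in replicate 1, against 51.9% of all genes. Trim63, chosen after its value was seen, was the 1 of 16 partners over 1.5-fold, against 3.99% of all genes. It encodes a ubiquitin ligase that binds titin and stood at 24.3 and 14.7 TPM, so like Tcap it was higher in replicate 1.

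The other PDZ-LIM genes, relatives of Ldb3, were all below it. All 6 were at 1 TPM or more, and the highest were Pdlim3, the relative most used in muscle, at 198 and 186 TPM, Pdlim5 at 150 and 138 TPM, Pdlim7 at 126 and 132 TPM and Pdlim1 at 92.7 and 88.4 TPM. Their sum was 597 and 576 TPM, so Ldb3 alone, at 434 and 399 TPM, was lower than the 6 together and higher than any 1 of them. Pdlim2, also chosen after its value was seen, was the 1 of 6 over 1.5-fold, against 3.99% of all genes. It stood at 4.37 TPM in replicate 1 and 7.32 in replicate 2, from 120 and 198 counts.

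**Figure D5:**
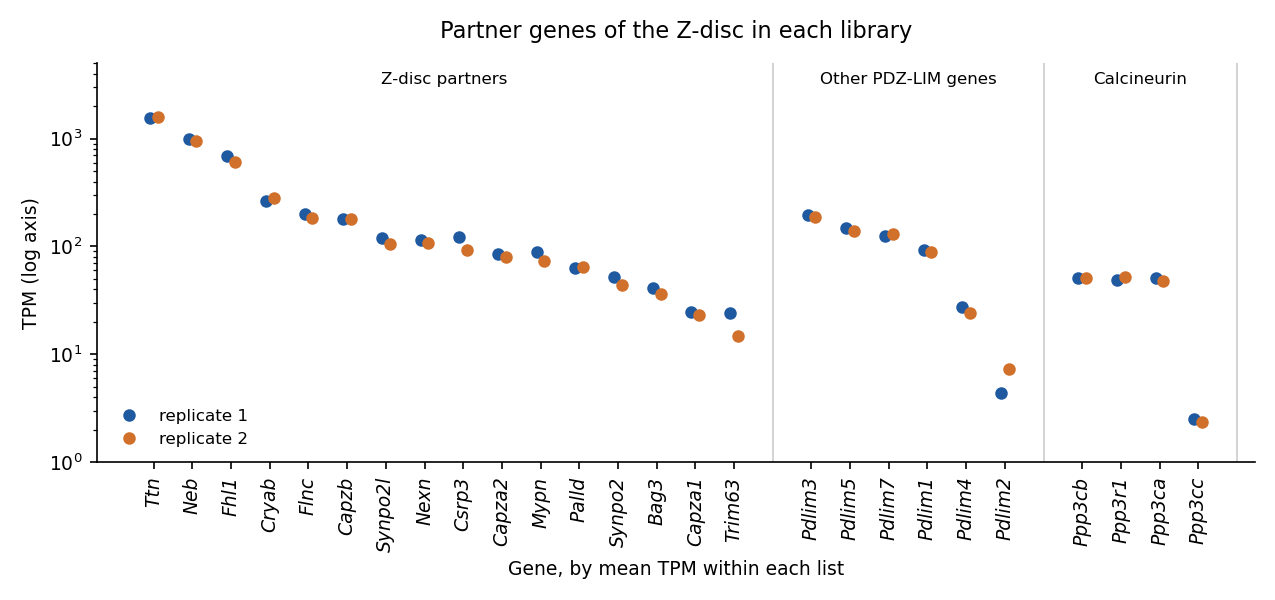
TPM on a log axis for 16 Z-disc partner genes, 6 other PDZ-LIM genes and 4 calcineurin genes, with replicate 1 in blue and replicate 2 in orange. Ttn leads at 1569 and 1603 TPM, and Trim63 and Pdlim2 are the genes whose libraries differ by over 1.5-fold.

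Genes that overlap the 10 held few reads. No source states if counting used strand, so reads of antisense neighbours cannot be told apart from those of the gene. Capn12, on the strand opposite to Actn4 with an overlap of 316 nt, stood at 0.0800 and 0.380 TPM. The transcripts that overlap Actn1 on either strand stood at 0.450 TPM or less in both libraries, and Gm44699, within an intron of Actn4, at 0.650 TPM or less. Gm22066, a miRNA gene that overlaps Myoz2, had a count of 0 in both libraries. For Actn2, Actn3, Ldb3, Tcap, Myot, Myoz1 and Myoz3 no overlapping gene is annotated.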

How the data were processed

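Total RNA-seq tables of 2 gastrocnemius libraries were used. Expected counts per gene and per transcript, not always whole numbers, were deposited in tables with RSEM column names, per the file headers. Per the file headers, those deposited tables also give TPM (spike-ins included) and IsoPct, the percent of its gene's TPM that each transcript holds. The authors' second transcript table, with kallisto column names per the file headers, gives estimated counts and TPM that were computed from the reads themselves. The deposited notes say that the build was mm10, with GENCODE M21 annotation. The programs behind the tables are not given in the sources used.

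Gene symbols came from the second transcript table and were joined to the gene tables by identifier. The genes, lists and comparisons were chosen with earlier results of these data known. Named in the text were all 10 genes and up to 4 members of highest mean TPM of each partner list (with exceptions said). Also named were Ldb3 transcripts at 5% or more by the alignment-based table and leading transcripts of the other genes. Family shares are percent of summed TPM. Log2 ratios between single genes used TPM plus 0.1, and those between sums no pseudocount. Ratios between animals used expected counts scaled by TMM factors (edgeR 4.0.16, R 4.3.3, over genes averaging at least 10 counts) with a prior count of 0.5, and 1.5-fold was the threshold. Counting intervals are exact Clopper-Pearson 95% intervals (SciPy 1.17.1) of counts rounded to whole numbers. Without molecular identifiers, intervals cover counting error only. DESeq2 1.42.0 size factors, ERCC counts, total counts, other folds, posterior mean TPM and counts not divided by length were alternatives. The ratio step was checked on simulated counts with known changes and counting error only, so the check does not cover variation between animals. Some sequence is not reported here.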

Additional observations from a re-analysis of the deposited data

How the results depend on the processing

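No paired analysis was possible because there was 1 group. The log2 ratios of Actn3 over Actn2, Myoz1 over Myoz2 and muscle over nonmuscle actinin kept their sign under the alternatives run. The ratios of Actn1 and Myoz2 between the animals changed sign with ERCC scaling and with total counts, as given above. The Actn3 share of actinin TPM was 39.4% in the second quantification, 39.7% of counts not divided by length and 39.2% with protein-coding transcripts only, the last chosen after seeing the data. The log2 ratio of Actn3 over Actn2 under the same alternatives was -0.40, -0.42 and -0.47. The Myoz1 share was 69.0% of counts, the log2 ratio of muscle over nonmuscle actinin 3.44 in the second quantification, and the Ldb3-207 share 56.5% in the second quantification and 34.2% of counts. In counts the leading Ldb3 transcript was Ldb3-205 instead, with 55.1% and 56.3%, and long forms exceeded short ones. The number of the 10 genes past the threshold was 0 at a fold of 2 and 1 under every scaling run. Each library alone gave 43.4% to 44.6% for the Actn3 share, 69.9% to 73.6% for Myoz1, 62.7% to 62.8% for Ldb3-207, and log2 ratios of -0.19 to -0.15 for Actn3 over Actn2, 1.33 to 1.61 for Myoz1 over Myoz2 and 3.72 to 3.97 for muscle over nonmuscle actinin. Division by length moved transcript shares of unequal length, and the cause of the other shifts was not tested. With 2 libraries, SDs are rough, and low transcripts such as Actn1-202 rest on few counts.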
